A study of Mus musculus with 12 samples.

Results

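The 10 genes studied here mark developmental time in the nervous system and were followed by single-nucleus RNA sequencing (snRNAseq) of the embryonic mouse cortex. Members were listed by name, with no threshold on their values, though earlier results of these data were known: Hmga2, Lin28a, Lin28b, Igf2bp1, Igf2bp2, Igf2bp3 and Prtg, which are usually grouped as heterochronic genes, and the nuclear factor I genes Nfia, Nfib and Nfix. These are 10 of the 23513 genes in the deposited tables, and all 10 were in the tables. Cortices were collected at embryonic day 14 (E14) from C57BL/6J embryos without any engineered allele, whose dams had been injected intraperitoneally with saline or with ethanol (EtOH) at 2.5 g/kg once a day for 6 days from E8.5. This prenatal alcohol exposure (PAE) was compared in 5 saline and 6 EtOH embryos, which came from 2 dams per treatment, so embryos of a dam were littermates and the p-values below measure the spread between embryos. One further saline embryo named in the labels was not analysed here. Nuclei were sorted by the study into 25 clusters, grouped here as radial glial cells (RGC, which include the cluster named Int Precursors), intermediate progenitor cells (IPC), projection neurons (PN), interneurons (Int) and other clusters (Other: Striatal Int, Layer I and Unknown).

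Heterochronic genes set the timing of developmental steps. LIN28 proteins bind precursors of the let-7 microRNAs and block their maturation, while mature let-7 represses messages that carry a match to its seed, among them those of LIN28 itself, of the chromatin protein HMGA2 and of the IGF2BP RNA-binding proteins. In the cortex the LIN28 and HMGA2 side of this pair belongs to early progenitors, and the NFI transcription factors come up later, when progenitors turn towards differentiation and then gliogenesis. Protogenin (Prtg), a receptor-like surface protein of the DCC and neogenin family, is another early gene. MicroRNAs themselves are not read by this assay, which counts polyadenylated RNA in nuclei.

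The let-7 seed is shown first, because the messages of most heterochronic members are named above as targets of let-7. In the RefSeq microRNA table (GRCm38.p6), 13 mature entries with 11 different sequences carried this seed. Bases 2 to 8, the seed, are in capitals below for 4 of them.

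let-7a-5p: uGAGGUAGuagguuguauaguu
let-7g-5p: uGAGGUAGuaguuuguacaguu
let-7i-5p: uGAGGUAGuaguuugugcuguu
miR-98-5p: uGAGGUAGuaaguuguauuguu

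The first 8 bases were the same in these 4, and the sequences differed in their second part. The mature let-7a-5p of Mirlet7a-1 lies at chr13:48538239-48538260 on the minus strand, let-7g-5p at chr9:106178846-106178867 on the plus strand inside Wdr82, and let-7i-5p at chr10:122985698-122985719 on the minus strand. GGAG, the bases that LIN28 prefers in precursor loops, occurred somewhere in 10 of the 13 hairpins (76.9%), against 447 of all 1005 hairpins (44.5%). The search was not limited to loops, and let-7e-5p and let-7k hold GGAG within the mature sequence.

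Each heterochronic member had at least 1 full match to the seed in its longest annotated 3′ UTR (GENCODE M21, GRCm38). A match was counted as an 8mer, CTACCTCA, or as the 7mer CTACCTC, on the sense strand. The 8mer nearest to the stop codon is in capitals below for each of these 7 genes, and the single 7mer for Nfia.

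Hmga2: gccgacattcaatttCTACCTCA
Lin28a: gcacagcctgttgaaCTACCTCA
Lin28b: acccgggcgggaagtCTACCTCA
Igf2bp1: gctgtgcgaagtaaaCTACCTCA
Igf2bp2: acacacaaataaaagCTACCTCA
Igf2bp3: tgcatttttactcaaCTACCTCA
Prtg: ccctctgctgaatagCTACCTCA
Nfia: gatacaggagaagtgCTACCTCt

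These windows lie at chr10:120364224-120364246 (Hmga2), chr4:134005189-134005211 (Lin28a), chr10:45381022-45381044 (Lin28b), chr11:95961778-95961800 (Igf2bp1), chr16:22059473-22059495 (Igf2bp2) and chr6:49086787-49086809 (Igf2bp3) on the minus strand, and at chr9:72912558-72912580 (Prtg) and chr4:98117918-98117940 (Nfia) on the plus strand. Hmga2, Lin28b and Igf2bp1 held 4 matches each, Lin28a and Prtg 2 each, and Igf2bp2, Igf2bp3 and Nfia 1 each. No match was found in the 3′ UTR of Nfib or of Nfix. Over 20996 protein-coding genes with an annotated 3′ UTR, 9.04% held a match of either kind and 3.06% held an 8mer. The median length of those UTRs was 962 bases, against 1784 to 6337 bases in the heterochronic members, so these shares are not matched for length. An 8mer was thus found in each heterochronic member and in no NFI member, while counting both kinds Nfia held as many matches as Igf2bp2 or Igf2bp3. The UTRs of Nfia (7639 bases) and Nfib (6621 bases) were longer than the others, and none of these matches was tested for function here.

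**Figure D1:**
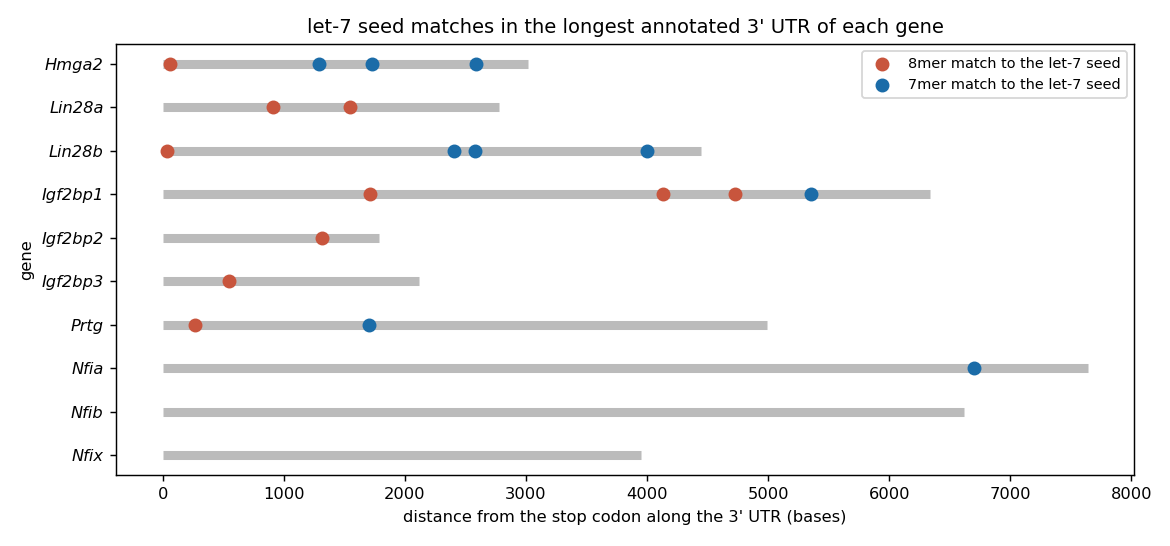
Position of each match to the let-7 seed along the longest annotated 3′ UTR, in bases from the stop codon, for the 10 genes (grey bars: UTR length, up to 7639 bases for Nfia; red: 8mer; blue: 7mer). Each of the 7 heterochronic genes has at least 1 red point, Nfia has 1 blue point, and Nfib and Nfix have none.

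The NFI motif TTGGC, searched on both strands from 250 bases before to 50 bases after the start, was found in 4 of the 11 member promoters in the RefSeq table (36.4%): 3 of the 4 of Nfix and that of Prtg. Of all 32851 promoters, 46.7% held it. The full palindrome, TTGGC and its reverse complement with 5 bases of any kind between them, was in none of the 11 and in 12 of all promoters. Igf2bp1 and Nfib had no entry in that table.

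The tables held 50550 nuclei, 30349 from saline and 20201 from EtOH embryos, and 14078316 to 83061737 unique molecular identifiers (UMIs) per embryo. Nuclei of EtOH embryos were shallower: the mean was 4858 to 8237 UMIs per nucleus in EtOH and 7474 to 10873 in saline, where the saline embryo S2-4 (7474) lay within the EtOH range and the other saline embryos started at 9898. Embryos were processed in 2 batches, each with 1 saline and 1 EtOH dam. Pairs of embryos shared 1 to 18 cell barcodes. Class labels matched their markers: the 8 radial glia markers summed to 1167 CPM in RGC and at most 355 CPM in another class (CPM, the count of a gene scaled to a common total of UMIs per library), and the summed markers of IPC, PN and Int were likewise highest in their own class (623 against at most 115, 2295 against at most 985, and 2976 against at most 317 CPM).

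Levels of the members across clusters are given first, without a test, since the clusters were built from the same nuclei. A level is the CPM of counts summed per embryo and cluster, as the mean ± SD over embryos with at least 10 nuclei there. Levels are compared within a gene and not between genes, because detection by 3′ counting differs between genes.

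Hmga2 (chr10:120361275-120476469) encodes a high mobility group protein that binds AT-rich DNA and maintains early neural stem cells. Its level was highest in Cluster 12 (Non-mitotic RGC) at 473 ± 109 CPM, followed by Cluster 3 (Int Precursors), which had 379 ± 67 CPM, and Cluster 2 (RGC 1), which had 313 ± 130 CPM. These neighbours overlapped within their spread. Cluster 20 (RGC 2) had 195 ± 84 CPM, Cluster 17 (Mitotic IPC) 148 ± 28 CPM and Cluster 6 (Non-mitotic IPC) 43.1 ± 19 CPM. Cluster 21 (Cortical hem RGC) was the low one among RGC, at 68.5 ± 42 CPM. The 8 PN clusters lay between 9.78 CPM (Cluster 16) and 21.9 CPM (Cluster 8), and the highest cluster exceeded the lowest 48.3-fold. The genes most like it over the 25 clusters were Veph1 (r = 0.97), Usp37 (r = 0.96) and 1700006J14Rik (r = 0.96). The last of these overlaps Hmga2 on the opposite strand. The methods name default Cell Ranger settings, which count sense reads for 3′ chemistry, without stating the strand, and how well the reads of this pair were separated was not tested.

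Lin28a (chr4:134003330-134018841), the founding mammalian LIN28, was close to absent. It had 124 UMIs in the 50550 nuclei, and its highest cluster mean was 1.13 CPM in Cluster 10. No UMI was counted in Clusters 18 and 22, where 0 of 971 and 0 of 557 nuclei allow a share of nuclei with a UMI of up to 0.309% and 0.539%, for counting error only. In the reported fits Lin28a did not pass the filter on low counts in any cluster or class, so it has no value in the comparisons below.

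Lin28b (chr10:45376620-45486395), its paralogue, was high in many neurons and low in most progenitors. It was highest in Cluster 7 (Int 1) at 239 ± 40 CPM, followed by Cluster 19 (Unknown) at 193 ± 30 CPM and Cluster 24 (PN 2) at 186 ± 34 CPM. The lowest level was that of Cluster 2 (RGC 1), 23.4 ± 11 CPM, and Clusters 6, 9, 12 and 17, which are IPC, early PN and non-mitotic RGC, all had means between 29.0 and 29.3 CPM. Not every RGC cluster was low, since Cluster 20 (RGC 2) had 105.04 ± 51 CPM. Over the 25 clusters the correlation of its level was -0.85 with Igf2bp1, -0.82 with Igf2bp3, -0.80 with Nfix, -0.74 with Nfia and -0.55 with Hmga2, a description over clusters that share libraries. The nearest genes were Rgs7 (r = 0.93), Sgsm1 (r = 0.92) and Lrfn2 (r = 0.92).

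The 3 Igf2bp genes, whose products bind and stabilize messages, differed in how widely their levels ranged over the clusters. Igf2bp1 (chr11:95957163-96005940) was highest in Clusters 2, 17 and 12, whose means of 206, 205 and 203 CPM lay well within their spread (SD 12, 31 and 21). Its lowest level was 29.7 ± 14 CPM, in Cluster 19, a range of 6.95-fold. Igf2bp2 (chr16:22059009-22163299) had 321 ± 33 CPM in Cluster 6 and a mean within that spread in Cluster 12, and its lowest level, 158 ± 27 CPM, was that of Cluster 15 (Int 3). This range of 2.03-fold was the narrowest of the 9 members above the filter. Igf2bp3 (chr6:49085223-49214957) was highest in Cluster 10 (Late Int Precursor) at 474 ± 47 CPM, with Cluster 17 at 459 ± 41 CPM within its spread, and lowest in Cluster 25 (PN 3) at 160 ± 44 CPM. The nearest gene to each was Txlna for Igf2bp1 (r = 0.96), Spty2d1 for Igf2bp2 (r = 0.90) and Ints2 for Igf2bp3 (r = 0.95).

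Prtg (chr9:72806874-72917291) was highest in 2 of the RGC clusters. Cluster 21 (Cortical hem RGC) had 411 ± 81 CPM, Cluster 20 (RGC 2) had 167 ± 59 CPM, and the next, Cluster 3, had 25.01 ± 10 CPM. The gap between the first and the second mean was 3.03 times the larger SD. Single embryos still overlapped, since S2-2 had 313 CPM in Cluster 20 and E2-3 had 286 CPM in Cluster 21. Outside RGC the highest level was 10.6 CPM in Cluster 14 (Layer I), and Cluster 24 had 0.872 CPM. Dnaaf3, a gene of cilia assembly (r = 0.97), was nearest.

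Nfia (chr4:97772734-98118874), Nfib (chr4:82290173-82705750) and Nfix (chr8:84699876-84800344) encode related transcription factors that bind as dimers. Nfia was highest in Cluster 6 (Non-mitotic IPC) at 5570 ± 656 CPM and Cluster 4 (Rostral Subcortical PN) at 5203 CPM, and lowest in Cluster 19 at 316 ± 209 CPM. Nfib was highest in PN, with 7332 ± 230 CPM in Cluster 1 (Callosal PN) and 7107 CPM in Cluster 9 (Early PN), and was lowest in Cluster 19 at 371 ± 222 CPM. Nfix was highest in Cluster 6 at 703 ± 155 CPM and Cluster 2 at 690 ± 80 CPM and lowest in Cluster 19 at 29.0 ± 21 CPM. The NFI genes were each other's neighbours: Nfix was the gene most like Nfia (r = 0.96), and Nfia the gene most like Nfib (r = 0.93) among 13646 genes considered. For Nfix the nearest was Gm11266 (r = 0.97), which overlaps Nfib on the opposite strand.

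**Figure D2:**
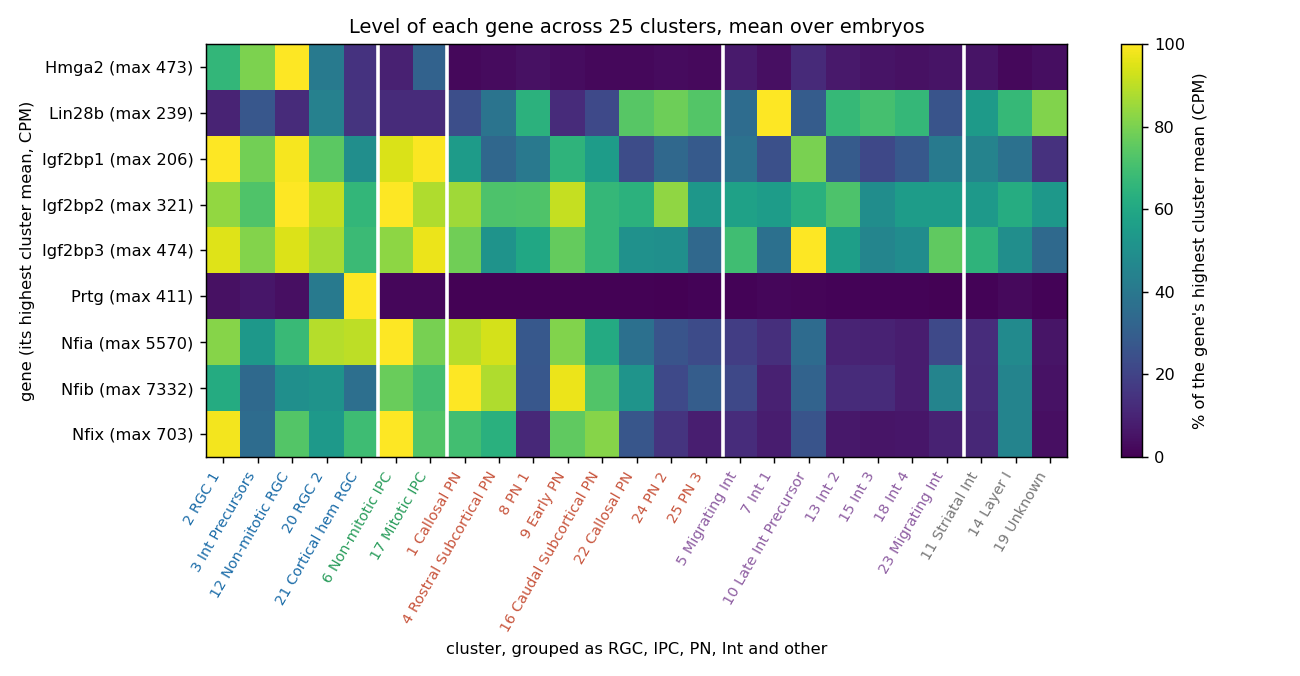
Mean level of 9 genes (rows; Lin28a left out, at most 1.13 CPM) in the 25 clusters (columns, grouped by class), as a percentage of each gene's own highest cluster mean, which is printed beside its name in CPM. Hmga2 is bright in RGC, Prtg in Cluster 21 (411 CPM), Lin28b in Cluster 7 (239 CPM), and the NFI genes are dark in most Int clusters.

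The order of clusters held when nuclei were thinned to 2000 UMIs, when medians replaced means and when small clusters were kept: over these alternatives and the 9 members the lowest Spearman rho with the reported order was 0.865, and the highest cluster was the same in 21 of 27 cases.

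The comparison of EtOH with saline asks whether PAE moved these timing genes, and in which cells. UMI counts summed per embryo were tested with edgeR's quasi-likelihood test in each cluster and class, with p adjusted by the Benjamini-Hochberg method over all genes tested there. A gene was called when the adjusted p was below 0.05 and the fold change was below 0.8 or above its inverse, and "rose" and "fell" are used for called genes.

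Few single tests were called, and they pointed down. Of 201 member and cluster pairs tested, 3 were called, all lower in EtOH: Hmga2 and Lin28b in Cluster 8 (PN 1) and Igf2bp1 in Cluster 5 (Migrating Int). Over all genes and clusters 0.35% of pairs were called lower, 0.865% in Cluster 8 and 0.813% in Cluster 5. No member was called higher in a cluster, where 0.442% of all pairs were. Values below 0 were more common among members, at 162 of 201 pairs (80.6%) against 49.0% of all 217253 pairs, and 71 pairs (35.3%) had an unadjusted p below 0.05 against 17.4% of all. The median log2 fold change was -0.20 over the member pairs and 0.01 over all pairs. All EtOH embryos lay below all saline embryos in 9 member pairs (4.48%), against 0.947% of all pairs, and in none did they all lie above. Member pairs are not separate observations, since the same genes were read in many clusters of the same embryos.

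**Figure D3:**
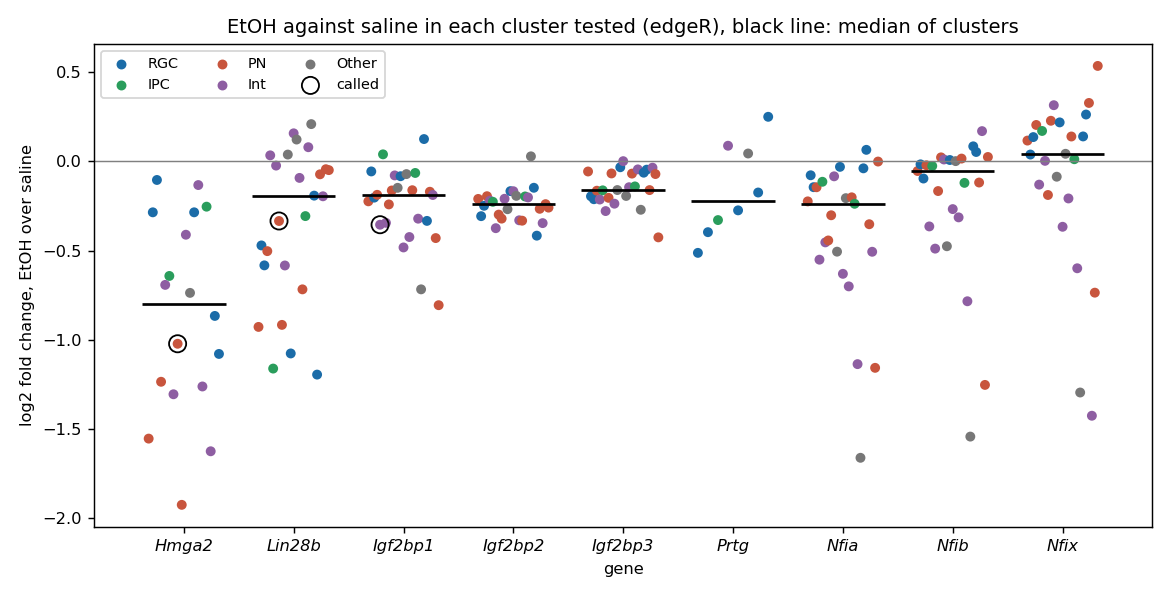
log2 fold change of EtOH over saline (edgeR, y axis) of 9 genes (x axis) in each cluster where the gene was tested, coloured by class, with the median over clusters as a black line and the 3 called pairs circled. Hmga2 lies below 0 in its 18 clusters, and Nfix lies above 0 in 16 of 25.

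The members did not share 1 direction. Hmga2 was below 0 in 18 of the 18 clusters tested, Igf2bp2, Igf2bp3 and Nfia in 24 of 25 each, Igf2bp1 in 23 and Lin28b in 19 of 25. Nfib was below 0 in 16 of 25 clusters with a median of -0.05, and Nfix in 9 of 25 with a median of 0.04. Prtg passed the filter on low counts in 8 clusters and was below 0 in 5. For Hmga2 and Prtg the filter left part of the clusters, and a low cluster can pass it through the saline embryos, as in Cluster 9 (Early PN), where Hmga2 had 27 to 65 UMIs in saline and 0 to 13 in EtOH embryos. For Hmga2 in Cluster 13 the mean over embryos was 30.8 CPM in saline and 32.7 CPM in EtOH, while the fitted log2 fold change was -0.13.

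Hmga2 showed the largest member difference in a class, and it lay in PN. In saline embryos its level in PN was 17.5 CPM (S1-1), 14.3 CPM (S1-2), 33.9 CPM (S2-1), 30.4 CPM (S2-2) and 10.5 CPM (S2-4), and in EtOH embryos the lowest, median and highest were 3.68, 8.52 and 10.7 CPM. The groups met at S2-4, which lay just below the highest EtOH embryo. Hmga2 fell in PN by 1.41 on the log2 scale (SE 0.34, adjusted p = 0.0358, edgeR), where 2.36% of all genes were called lower. The call was lost in limma voom when dams were fitted as random blocks (-1.22, adjusted p = 0.0882), in thinned nuclei (-1.39, adjusted p = 0.0512, edgeR) and in 10 of the 11 fits that each left out 1 embryo. Of the 7 alternatives that kept all embryos 5 kept the call, among them counts summed per dam (-1.24, adjusted p = 0.0467, edgeR). Within batch 1 the log2 ratio of the group means was -0.73 and within batch 2 it was -1.76.

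In Cluster 8 (PN 1) the saline embryos had 33.3, 28.3, 30.8, 31.4 and 22.02 CPM of Hmga2, and the EtOH embryos 7.71 to 25.3 CPM with a median of 13.1 CPM. The 2 EtOH embryos of batch 1, at 24.7 and 25.3 CPM, lay below both saline embryos of that batch and above S2-4, a saline embryo of batch 2. The 4 EtOH embryos of batch 2 lay below all saline embryos. The fall was 1.02 on the log2 scale (SE 0.22, adjusted p = 0.0405, edgeR). The call was lost with counts summed per dam (-0.95, adjusted p = 0.274, edgeR) and in thinned nuclei (-0.63, adjusted p = 0.340, edgeR). Of the 11 fits that each left out 1 embryo, 8 lost the call, and values over the 11 were -1.21 to -0.91.

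In RGC, where Hmga2 is high, the test was not passed. Saline embryos had 266, 292, 462, 349 and 302 CPM, and EtOH embryos 207 to 361 CPM with a median of 321 CPM. The ranges overlapped nearly throughout, and the log2 fold change was -0.20 (SE 0.16, adjusted p = 0.430, edgeR). Without S2-1, the embryo with 462 CPM, it was -0.04 (SE 0.12, adjusted p = 0.858, edgeR). The difference of the EtOH effect between RGC and PN was 1.17 on the log2 scale (SE 0.36), with an adjusted p of 0.371 in limma, so the effects in RGC and PN were not shown to differ. For the effect differences of RGC from IPC, PN and Int, 0 members were called in limma, 1 in PN (Hmga2) and 1 in Int (Nfia) had an unadjusted p below 0.05, and 0%, 0% and 0.00733% of all genes were called. Of all genes, 9.39% had such an unadjusted p for RGC against PN and 8.16% for RGC against Int.

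Over both batches, saline means of Hmga2 exceeded EtOH means in the 5 classes. The difference was 26.5 CPM in RGC, 20.6 CPM in IPC, 13.2 CPM in PN, 15.1 CPM in Int and 10.7 CPM in Other. The batches did not share this direction in every class. In batch 1 the log2 ratio of group means was above 0 in IPC (0.04), Int (0.36) and Other (0.13). It was below 0 there in RGC (-0.08) and PN (-0.73). In batch 2 it was -0.17 in RGC, -0.62 in IPC, -1.76 in PN, -1.23 in Int and -1.29 in Other. The CPM difference in RGC rested on S2-1. Without that embryo the means in RGC were 302 CPM in saline and 308 CPM in EtOH, while those in PN were 18.2 and 8.11 CPM. The share of nuclei with an Hmga2 UMI was read after each nucleus had been thinned to 2000 UMIs, which left out 177 saline and 210 EtOH nuclei, and differed by 2.10 to 3.25 percentage points in the 5 classes. That share was 36.6% ± 7.0 in saline and 33.8% ± 5.0 in EtOH RGC, 3.62% ± 1.83 and 1.27% ± 0.43 in PN, 4.99% ± 2.33 and 2.86% ± 0.80 in Int, and 3.66% and 1.55% in Other (SD, n = 5 and 6; 13.9% and 3.5% in PN without thinning). The share in PN was thus no higher than in Int and Other. Int includes Cluster 10 (Late Int Precursor), where embryos had 17.8 to 90.1 CPM of Hmga2. Free RNA in droplets can give such UMIs in nuclei that do not express a gene, and its part in the difference in PN was not tested.

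Markers of other cell types moved in PN as well, where 2.36% of all genes were called lower. Of the 6 interneuron markers 2 were called lower in PN (Dlx1 and Dlx6os1), and their summed level was 104 to 225 CPM in saline and 59.1 to 115 CPM in EtOH embryos. Dlx6os1, an interneuron RNA, had 76.9 ± 24.5 CPM in saline and 39.6 ± 10.8 CPM in EtOH PN. Of the 4 IPC markers 2 were called lower (Eomes and Neurog2), with sums of 40.5 to 60.1 CPM against 30.0 to 39.9 CPM, and of the 8 radial glia markers 1 was called lower (Ednrb), with sums of 107 to 125 CPM against 97.4 to 134 CPM. Of the 5 projection neuron markers Neurod2, a neuronal transcription factor, was called lower, with 232 ± 46 CPM in saline and 149.9 ± 6.9 CPM in EtOH PN. Both microglia markers tested, P2ry12 and Cx3cr1, were called higher in PN, and the summed level of the 4 microglia markers was 8.73 to 21.01 CPM in saline and 17.8 to 27.3 CPM in EtOH embryos. Of the 3 thalamus markers tested Slc17a6 was called lower, and of the 2 choroid plexus markers tested Kcnj13 was called higher. The share of all genes called higher in PN is not given here, so the higher calls stand without that background. None of these markers was at 0 in all embryos in PN, and their part in the values of Hmga2 was not tested.

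The values of Lin28b in RGC, IPC and PN moved towards 0 without 1 embryo, S2-1. In RGC the saline embryos had 43.5, 45.5, 113, 44.97 and 25.8 CPM, with 113 CPM in S2-1, and the EtOH embryos 26 to 50.5 CPM with a median of 29.4 CPM. The log2 fold change in RGC was -0.69 (SE 0.38, adjusted p = 0.244, edgeR), and without S2-1 it was -0.24 (SE 0.25, adjusted p = 0.602, edgeR). In PN saline embryos had 88.7, 90.5, 163, 121 and 87.8 CPM and EtOH embryos 64.4 to 91.4 CPM, with a log2 fold change of -0.50 (SE 0.17, adjusted p = 0.0713, edgeR). Without S2-1 it was -0.31 in PN (SE 0.10, adjusted p = 0.101, edgeR), and in IPC it moved from -0.90 to -0.42. Within batch 1, which does not hold S2-1, the log2 ratio of group means was -0.77 in RGC, -0.23 in IPC and -0.33 in PN. Within batch 2 it was -0.62, -1.17 and -0.55. In Int, where the gene is higher, the means were 146 CPM in both groups.

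Within Cluster 8 the embryo S2-1 stood less apart. Saline embryos had 163, 153, 200.1, 168 and 172 CPM of Lin28b and EtOH embryos 119 to 168 CPM with a median of 139.6 CPM. Lin28b fell there by 0.33 on the log2 scale (SE 0.08, adjusted p = 0.0440, edgeR). The call was lost with batch as a covariate (adjusted p = 0.0573, edgeR), with counts summed per dam (0.147) and in thinned nuclei (-0.23, 0.430), and it was kept without S2-4 and lost without any other embryo. The EtOH embryo E2-2, at 168 CPM, lay inside the saline range.

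**Figure D4:**
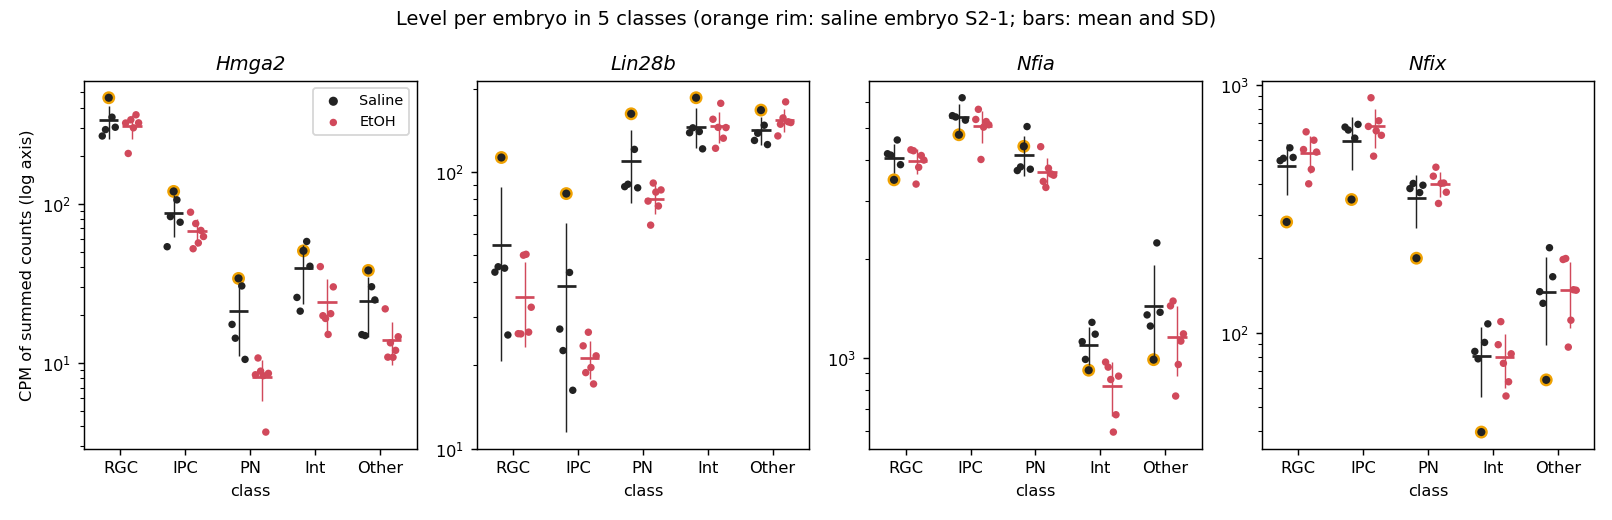
Level per embryo (CPM, log axis) of Hmga2, Lin28b, Nfia and Nfix in 5 classes, with saline in black, EtOH in red, mean and SD as bars and the saline embryo S2-1 ringed in orange. S2-1 is the highest saline point for Lin28b in RGC (113 CPM) and the lowest for Nfix in RGC (280.0 CPM), and in PN most EtOH points for Hmga2 lie below the saline points.

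The Igf2bp genes had small differences, with class values from -0.32 to -0.02 for Igf2bp1, -0.29 to -0.21 for Igf2bp2 and -0.21 to -0.15 for Igf2bp3 on the log2 scale. Igf2bp2 in Int was 181, 194, 209, 230 and 185 CPM in saline embryos and 156 to 180 CPM with a median of 174 CPM in EtOH embryos. No EtOH embryo reached the saline range, as for 1.17% of all genes in Int. The log2 fold change was -0.29 (SE 0.07, adjusted p = 0.0351, edgeR), which is past the p threshold but short of the fold threshold.

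Igf2bp3 in PN was 300.2, 306, 313, 323 and 298 CPM in saline embryos and 281 to 296 CPM with a median of 284 CPM in EtOH embryos. The groups did not overlap here either, as for 1.79% of all genes in PN, and the log2 fold change was -0.15 (SE 0.04, adjusted p = 0.0434, edgeR). Igf2bp1 in PN (-0.24, SE 0.06, adjusted p = 0.0305, edgeR) and in Int (-0.32, SE 0.08, adjusted p = 0.0364, edgeR) and Igf2bp2 in PN (-0.27, SE 0.06, adjusted p = 0.0245, edgeR) likewise passed the p threshold and not the fold threshold. Without S2-1 none of these, nor Igf2bp2 in Int or Igf2bp3 in PN, passed the p threshold (adjusted p 0.0660 to 0.101, edgeR). Over all nuclei the 3 genes had log2 fold changes of -0.24, -0.27 and -0.21, with adjusted p of 0.0208, 0.0202 and 0.0198 in edgeR; 0 of 9 members were called lower there by edgeR, where 3.55% of all genes were called lower, 4 had an unadjusted p below 0.05, as had 38.1% of all genes, and DESeq2 called 1, where it called 4.75% of all genes lower.

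Igf2bp1 in Cluster 5 (Migrating Int) was the third called pair. Saline embryos had 77.8, 79.1, 85.8, 102 and 84.6 CPM and EtOH embryos 53.5 to 77.2 CPM with a median of 70.6 CPM. The groups did not overlap, as for 0.897% of all genes in this cluster, though the lowest saline and the highest EtOH embryo lay side by side, and Igf2bp1 fell by 0.36 on the log2 scale (SE 0.09, adjusted p = 0.0484, edgeR). The call was lost with counts summed per dam (adjusted p = 0.140, edgeR) and in thinned nuclei (-0.29, 0.255), and it was kept without S2-4 and lost without any other embryo.

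Prtg was not called anywhere. In Cluster 21, its main site, saline embryos had 399.5, 365, 378, 402 and 338 CPM, and the 5 EtOH embryos with at least 10 nuclei there had 286 to 560 CPM with a median of 469 CPM. The EtOH embryos spread more widely and lay on both sides of the saline range, and the log2 fold change was 0.25 (SE 0.15, adjusted p = 0.532, edgeR). In RGC as a whole the log2 ratio of group means was 0.62 within batch 1 and -0.85 within batch 2, and Cluster 21 made up 0.459% to 14.9% of the RGC nuclei of an embryo.

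Nfia was the NFI member called in a class, in Int. Saline embryos had 1122, 991, 919, 1284 and 1182 CPM and EtOH embryos 597 to 973 CPM with a median of 871 CPM. S2-1, the lowest saline embryo at 919 CPM, lay inside the EtOH range. Nfia fell in Int by 0.49 on the log2 scale (SE 0.12, adjusted p = 0.0382, edgeR), where 1.23% of all genes were called lower, and the log2 ratio of group means was -0.14 within batch 1 and -0.58 within batch 2. The call was lost with counts summed per dam (-0.44, adjusted p = 0.125, edgeR) and in 9 of the 11 fits that each left out 1 embryo.

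The lowest fitted values of Nfia and Nfib were in Cluster 19, where the level of both was lowest. In Cluster 19 (Unknown) Nfia had 632, 328, 539, 655 and 334 CPM in saline and 83.4 to 291 CPM with a median of 146 CPM in EtOH embryos. Nfib there had 694, 584, 463, 691 and 408 CPM in saline and 90.6 to 373 CPM with a median of 184 CPM in EtOH embryos. Neither gene overlapped between groups in this cluster, as for 0.578% of all genes there, and the log2 fold changes were -1.66 (SE 0.37, adjusted p = 0.108, edgeR) and -1.54 (SE 0.38, adjusted p = 0.128, edgeR), so neither was called. In Cluster 18 (Int 4) Nfia also had no overlap, as for 0.644% of all genes there, with 492 to 978 CPM in saline and 67.4 to 432 CPM in EtOH embryos (log2 fold change -1.14, SE 0.36, adjusted p = 0.252, edgeR). In RGC Nfia had 4044 ± 412 CPM in saline and 3968 ± 344 CPM in EtOH, and Nfib 3573 ± 457 and 3703 ± 313 CPM, so both differed by less than the SD.

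In thinned nuclei the level of Nfia in Int fell by 0.64 on the log2 scale (SE 0.10, adjusted p = 0.0114, edgeR), and the share of nuclei with a UMI differed as well. After thinning, 72.5%, 65.2%, 65.4%, 73.4% and 55.0% of Int nuclei of the saline embryos held an Nfia UMI, and 35.9% to 46.1% with a median of 41.1% in EtOH embryos. For Nfib the saline shares were 84.1%, 76.2%, 66.9%, 77.7% and 66.3% and the EtOH shares 47.0% to 56.7% with a median of 52.9%. Groups did not overlap for either gene, and S2-4, whose depth lies in the EtOH range, had the lowest saline share for both. Without thinning the Nfia shares were 93.3% ± 9.13 and 60.5% ± 4.88.

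The difference was 25.6 percentage points for Nfia and 22.2 for Nfib in Int, and 22.4 and 21.8 points in Other. In PN it was 5.19 and 1.90 points and in RGC 0.31 and 0.82 points, where the saline shares, 93.6% and 95.9% in PN and 98.8% and 98.0% in RGC, were near their upper limit and left little room for a difference to show. Among 261 genes with a mean of 500 to 2000 CPM in Int, a window chosen after seeing the data, the median difference was 2.94 points, Nfia and Nfib had the highest values, and 6.51% had no overlap with EtOH below saline. By UMIs per thinned nucleus, Int nuclei with 1 to 2 Nfia UMIs made up 40.4% ± 5.81 in saline and 23.7% ± 2.31 in EtOH, and those with 3 or more made up 25.9% ± 3.67 and 16.99% ± 2.40.

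Large differences of this kind were seen in the other classes for other genes. In RGC the largest in the same window were of the neuronal genes Nrxn3 (82.3% of saline and 46.3% of EtOH nuclei) and Ccser1 (74.9% and 42.8%), and in PN of Nrxn3 (75.2% and 29.6%). Nfia and Nfib are high in PN (3887 and 5426 CPM on average) and low in Int (947 and 1281 CPM). Projection neuron markers summed to 757 to 1002 CPM in saline and 685 to 974 CPM in EtOH Int, and 0 of 5 were called there. Free RNA was not measured, and its part in these shares was not tested.

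**Figure D5:**
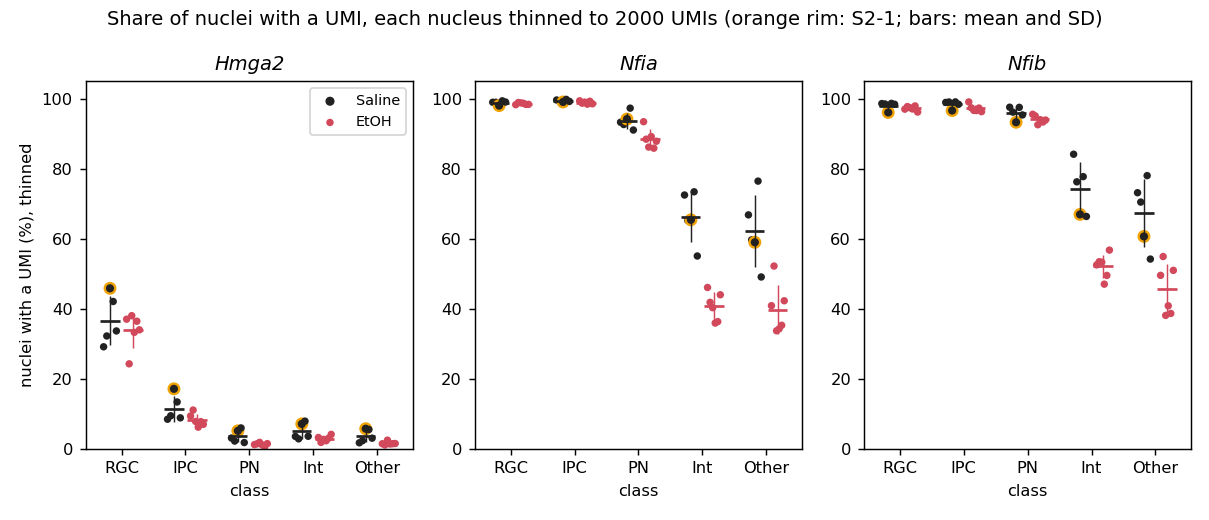
Share of nuclei with a UMI of Hmga2, Nfia or Nfib (%, y axis) per embryo in 5 classes after thinning to 2000 UMIs per nucleus, with saline in black, EtOH in red, mean and SD as bars and S2-1 ringed in orange. In Int the EtOH shares of Nfia (35.9% to 46.1%) lie below the saline shares (55.0% to 73.4%), while in RGC both groups are near 98%.

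Nfix had values on both sides of 0. Its cluster values ran from -1.43 in Cluster 23 (SE 0.37, adjusted p = 0.0971, edgeR), with 54.9 to 175 CPM in saline and 18.6 to 60.2 CPM in the 5 EtOH embryos with at least 10 nuclei, to 0.53 in Cluster 25, and none was called. In RGC saline embryos had 495, 506, 280.0, 558 and 510 CPM and EtOH embryos 399 to 648 CPM with a median of 543 CPM. Apart from S2-1 the groups overlapped. The log2 fold change was 0.10 (SE 0.17, adjusted p = 0.735, edgeR) in RGC, 0.15 (SE 0.17) in PN and -0.09 (SE 0.24) in Int, and without S2-1 the values were -0.04 in RGC, 0.0023 in PN and -0.27 in Int. Within batch 1, which does not hold S2-1, the log2 ratio of group means was 0.26 in RGC, 0.19 in PN and 0.30 in Int. Within batch 2 it was 0.15, 0.23 and -0.21.

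By class, 2 of the 45 member and class tests were called, Hmga2 in PN and Nfia in Int. In RGC, IPC and Other 0 of 9 members were called lower by edgeR, where 1.48%, 0.64% and 0.493% of all genes were, and 0 were called higher, where 2.31%, 0.883% and 0.76% of all genes were. In each of these 3 classes 3 of the 9 had an unadjusted p below 0.05, where 29.8%, 23.7% and 22.4% of all genes had. In PN 6 of the 9 and in Int 5 of the 9 had one, where 32.8% and 28.3% of all genes did. DESeq2 called 0, 0 and 1 of the 9 lower in these classes, where it called 3.17%, 1.98% and 1.15% of all genes lower, and 6 of the 45 tests in all, against 2.5% of all gene and class pairs, with no member higher.

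The saline embryo S2-1 was often the extreme one in these genes. Of 25 clusters it was the highest of all embryos for Lin28b in 14 and for Hmga2 in 11, and the lowest for Nfix in 20 and for Nfib in 9. For Hmga2 its littermate S2-2 was the highest in 9 further clusters, and S2-2 was the highest for Nfia in 17 and for Igf2bp2 in 15. The RGC of S2-1 were 17.7% Cluster 2, 51.3% Cluster 3 and 13% Cluster 20. The other embryos had 14.2% to 41.2% in Cluster 3 and 0.209% to 10.3% in Cluster 20. The pattern was also seen within clusters: in Cluster 2 the Hmga2 of S2-1 was 656 CPM against 152 to 413 CPM in the other embryos, and its Nfix 497 CPM against 618 to 779 CPM.

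Without S2-1, 0 members were called in the classes by edgeR (against 0.351% of all gene and class pairs called lower), with 24 of 54 tests at an unadjusted p below 0.05. In clusters 2 pairs were then called lower, Nfia in Cluster 11 and Nfix in Cluster 23 (against 0.0609% of all pairs). Hmga2 in PN was then -1.18 (SE 0.31, adjusted p = 0.0796, edgeR) and Nfia in Int -0.55 (SE 0.13, adjusted p = 0.0795, edgeR).

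The calls in classes did not stand up to leaving out most single embryos. Leaving out each embryo in turn, Hmga2 in PN kept its call without S2-4 and lost it without any other embryo (adjusted p 0.00347 to 0.0840, edgeR), with log2 fold changes of -1.57 to -1.18. Nfia in Int kept its call without S2-4 or E1-1 (adjusted p 0.0270 to 0.108, edgeR), with log2 fold changes of -0.55 to -0.41. Within batches, 19 of the 45 member and class ratios were below 0 in both batches, 5 were above 0 in both and 21 had opposite signs.

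The pathway neighbours of the members were read from lists of textbook members. Of the let-7 pathway (31 gene names with aliases among them, 26 in the tables) Tnrc6a, a scaffold of microRNA silencing, was called lower in RGC, IPC, PN and Int. It was the 1 gene called of 23, 22, 24 and 24 tested there, and no gene was called higher. Of all genes 1.48%, 0.64%, 2.36% and 1.23% were called lower in these classes, which come from the same embryos. In RGC Tnrc6a had 84.8 ± 11.8 CPM in saline and 65.7 ± 5.5 CPM in EtOH (log2 fold change -0.45, SE 0.10, adjusted p = 0.0402, edgeR). The median over the 23 list genes tested in RGC was -0.12, against 0.00 over all genes. Igf1r, a growth factor receptor and let-7 target with the highest RGC level of the list, had 813 ± 48 and 739 ± 18 CPM there and was not called. Zcchc11, which encodes the uridylyltransferase that LIN28A recruits to let-7 precursors, had 528 and 507 CPM and was not called.

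Of the IGF2BP and m6A list (21 genes, 20 in the tables), which holds readers and writers of the RNA mark that IGF2BP proteins bind, 3 of 18 tested genes were called lower in RGC and in PN, where 1.48% and 2.36% of all genes were: Rbm15, Ythdf3 and Ythdc1. Ythdc1, the nuclear m6A reader, was called lower in all 5 classes, with 83.8 ± 9.3 and 64.6 ± 6.9 CPM in RGC (-0.46, SE 0.10, adjusted p = 0.0402, edgeR). Rbm15, of the m6A writer complex, was called lower in RGC, PN and Int. Fto, an eraser with the highest RGC level, had 417 and 409 CPM and was not called.

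Of the NFI and astrocyte list (24 genes, all in the tables) Sox9, which acts with NFIA in gliogenesis, was called lower in RGC (55.8 ± 6.0 and 44.7 ± 3.2 CPM, -0.40, SE 0.09, adjusted p = 0.0402, edgeR) and in Int, Bbx in Int and Id4 in PN, and S100b was called higher in PN and Int. Called lower were thus 1 of 21 tested in RGC, 1 of 18 in PN and 2 of 20 in Int. Of all genes 1.48%, 2.36% and 1.23% were called lower there. S100b was at 6.78 CPM in EtOH PN, a low level, and the share of all genes called higher in PN and Int is not given here. Zbtb20 and Ezh2, which had the highest RGC levels of the list, were not called in any class. The median over the list genes tested was 0.04 in RGC, -0.04 in IPC, -0.19 in PN, -0.19 in Int and -0.22 in Other. Over all genes it was 0.00, 0.01, 0.01, 0.01 and 0.00. The list drawn up around Prtg (8 genes) holds relatives of Prtg and also Rgma, Rgmb and BMP genes. In it Dcc, the netrin receptor, and Neo1, a receptor of repulsive guidance molecules, had the highest RGC levels and were not called there. Dcc had 5112 ± 1044 and 4104 ± 583 CPM (-0.40, SE 0.14, adjusted p = 0.0901, edgeR), and Neo1 332 ± 15 and 327 ± 13 CPM. Without S2-1 none of the 20 calls of list genes in the 5 classes was kept in edgeR (adjusted p 0.0571 to 0.113), while all 20 had the same sign and an unadjusted p below 0.05.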

How the data were processed

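Nuclei of 11 embryonic cortices (5 saline, 6 EtOH) were profiled with 10x 3′ chemistry. The authors demultiplexed, aligned and counted reads with Cell Ranger against mm10, filtered nuclei and genes, and clustered with Seurat and Harmony; the deposited values are raw UMI counts per gene and nucleus, 1 table for each embryo and cluster, with 14078316 to 83061737 UMIs per embryo. Depth per nucleus was lower in EtOH, and the strand setting is not given in the sources used here beyond default Cell Ranger parameters. Apart from upper limits on genes and counts per nucleus, removal of doublets is not given there either, and no doublet caller was run. Groups came from the sample labels. The 10 members and the pathway lists were chosen with earlier results of these data known.

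Counts were summed per embryo and cluster (at least 10 nuclei) or class and tested over all genes with edgeR 4.0.16 (TMM factors, filterByExpr, quasi-likelihood test) in R 4.3.3, with Benjamini-Hochberg adjustment. Effects were compared between classes with limma 3.58.1 on differences of log2 CPM (prior count 2) within embryos. Both steps were tested on simulated data. Alternatives were DESeq2 1.42.0, RLE factors, no filter, batch as a covariate, sums per dam, limma voom with dam as a random block, thinning each nucleus to 2000 UMIs, at least 20 nuclei, and leaving out each embryo. Levels and list calls without S2-1, within-batch ratios, counts of groups that do not overlap, and the shares of other genes with the split by UMIs were chosen after seeing the data. Named genes were the members, the 3 genes with the highest r of log2(mean CPM + 1) over clusters among genes with at least 5 CPM in a cluster, and, of each list, up to 4 called genes and 2 with the highest RGC level. Sequences were read from GRCm38 annotation. Statistics used Python 3.11.15 with NumPy 2.4.6 and SciPy 1.17.1.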

Additional observations from a re-analysis of the deposited data

Results flagged for a closer look

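Of 90 groups of embryos (9 members, 5 classes, both treatments), 10 held 1 embryo far from the rest by Dixon's criterion, which chance passes in about 1 of 20 groups. The saline embryo S2-1 accounted for 6 of the 10. It had 113 CPM of Lin28b in RGC, where the other saline embryos had 25.8 to 45.5 CPM. Its Nfib was 2773 CPM in RGC (3662 to 3870 CPM in the others) and 4304 CPM in IPC (5553 to 5938 CPM). Its Nfix was 280.0 CPM in RGC (495 to 558 CPM), 345 CPM in IPC (611 to 694 CPM) and 199.99 CPM in PN (368 to 401 CPM). In these classes S2-1 was thus high for Lin28b and low for Nfib and Nfix. Its larger shares of Cluster 3 and Cluster 20 among RGC concern the RGC values only, and the part of these shares in them was not tested.

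The saline embryo S2-2 had 13.04 CPM of Prtg in IPC, against 5.44 to 6.50 CPM in the others. Among EtOH embryos, E2-3 had 3.68 CPM of Hmga2 in PN (8.32 to 10.7 CPM in the others), E1-1 had 21.9 CPM of Hmga2 in Other (10.9 to 14.6 CPM), and E2-1 had 4561 CPM of Nfib in IPC (5522 to 5784 CPM).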

How the results depend on the processing

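Of the 54 log2 fold changes of members in the 5 classes and in all nuclei, 43 kept their sign under every alternative run, and 49 did when leaving out embryos is set aside. The 3 member calls in clusters became 14 with DESeq2, 32 without the filter on low counts, 11 with counts summed per dam, 5 in voom with the dam as a block, and 0 to 20 when each embryo was left out. Over all genes, 1721 calls in clusters became 5669 (DESeq2), 10729 (no filter), 911 (batch as a covariate), 4877 (voom), 2112 (per dam), 721 (thinned) and 89 to 19059 (leaving out embryos), and the share of these calls that were higher in EtOH, 55.8%, became 80.7% in voom and 45.4% in thinned nuclei. The 2 member calls in classes became 7 (DESeq2), 4 (batch), 3 (RLE factors), 3 (no filter), 1 (per dam) and 0 to 5 (leaving out embryos), and 4721 calls of all genes became 8100 (DESeq2), 1371 (per dam), 1497 (thinned) and 409 to 15492. Among the fits that left out 1 embryo, the highest counts were without S2-4, the saline embryo whose depth per nucleus lies in the EtOH range. The part of depth was not tested. The 1 gene called for a difference of effects between classes became 0 with batch as a covariate, 0 without the filter and 0 to 29 without 1 embryo, and 0 members were called throughout. Hmga2 in PN lost its call in voom (adjusted p = 0.0882) and in thinned nuclei (edgeR, adjusted p = 0.0512), and Nfia in Int lost it per dam (edgeR, adjusted p = 0.125). In Cluster 8, Hmga2 lost its call per dam (edgeR, adjusted p = 0.274) and thinned (0.340), and Lin28b with batch (0.0573), per dam (0.147) and thinned (0.430); Igf2bp1 in Cluster 5 lost it per dam (0.140) and thinned (0.255). Leaving out embryos, these 3 kept their calls without S2-4, and Hmga2 also without E1-1 or E1-2, with adjusted p of 0.000735 to 0.120, 0.00910 to 0.120 and 0.00926 to 0.116. Log2 fold changes near 0 changed sign: Lin28b in Int was 0.0018 in thinned nuclei, Prtg in Other -0.0115 without the filter and -0.092 in voom, Nfib in all nuclei 0.0097 with batch, 0.0208 in voom and 0.0298 in thinned nuclei, and Nfix per dam 0.0107 in Int and 0.0152 in Other. Without 1 embryo, values ran from -0.15 to 0.033 for Lin28b in Int, -0.070 to 0.017 for Igf2bp1 in IPC, -0.38 to 0.083 for Prtg in Int, -0.15 to 0.25 for Prtg in Other, -0.10 to 0.021 for Nfib in RGC, -0.12 to 0.053 for Nfib in all nuclei, -0.035 to 0.17 for Nfix in RGC, -0.026 to 0.19 for Nfix in IPC, -0.27 to 0.0063 for Nfix in Int, -0.24 to 0.13 for Nfix in Other, and -0.079 to 0.17 for Nfix in all nuclei. Levels in the highest cluster moved by more than 1 SD between embryos in thinned nuclei for Igf2bp1 (206 to 219 CPM) and Prtg (411 to 497 CPM), and by less for the other members. Causes of these changes were not tested.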
